A study of Mus musculus with 6 samples.

Results

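The Wnt ligands described here are 10 genes, *Wnt4*, *Wnt5a*, *Wnt5b*, *Wnt9a*, *Wnt2*, *Wnt2b*, *Wnt7b*, *Wnt10a*, *Wnt11* and *Wnt3*, of 45616 genes and transcripts measured on microarrays of sorted neonatal islet cells. They were chosen by gene symbol and not by their values, though with earlier results of these data known. Every probe whose transcript belongs to one of them was used, 14 probes in all. The array holds 19 Wnt ligand genes, and the other 9 are given for comparison. Pups at P1 carried the knock-in allele *Wnt4eGFPCre* (*Wnt4* tm2(EGFP/cre)Svo) together with mTmG, a reporter in Gt(ROSA)26Sor, allele tm4(ACTB-tdTomato,-EGFP)Luo, in mice crossed to C57BL/6J. Islets of 3 or 4 pups were pooled for each sample, and cells were sorted on membrane GFP into a positive fraction, called *Wnt4*hi, and a negative fraction, called *Wnt4*low. The labels describe both fractions as sorted from the islets of such pups and give no treatment. A legend of the study names the side set against *Wnt4*hi as lacking *Wnt4eGFPCre*, so whether every *Wnt4*low cell carried that allele is not settled here. RNA of each fraction was amplified, labelled with Cy5 and hybridised to 1 array, with 3 arrays per fraction. These are replicates 2, 3 and 4 of *Wnt4*hi and replicates 1, 3 and 4 of *Wnt4*low.

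The sort limits what the fractions can stand for. Membrane GFP marks a cell in which Cre, made from the *Wnt4* locus, has acted at any time, so *Wnt4*hi is a history of *Wnt4* expression and not a level at P1. The sort used no marker of β-cells, and either fraction may hold other cells of the islet. In such bulk samples, fewer cells of a type and less RNA per cell cannot be told apart. Whether the *Wnt4* probe also reads a transcript of the knock-in allele is not given in the sources used here.

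Wnt proteins are secreted, lipid-modified glycoproteins that bind Frizzled receptors on nearby cells. With the co-receptors LRP5 or LRP6 they stabilise β-catenin, which then acts with TCF and LEF factors on target genes. With ROR, RYK or Frizzled receptors alone they can act without β-catenin on cell polarity, migration and calcium. *Wnt4* and *Wnt5a* are best known in islets, where non-canonical signalling has been linked to the functional maturation of β-cells.

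The 6 arrays lay on 1 slide with 1 scan, and 70.5 to 79.5% of 59305 spots that are not controls were well above background. The median spot signal was 10.8 to 15.7 times the local background, with *Wnt4*hi replicate 4 the dimmest, and 0 spots were saturated. In the authors' table of processed values, the column of *Wnt4*hi replicate 2 did not follow its own scanner output. After centring on each gene, it correlated with that array at r = 0.28 across 29194 probes, each the only one of its gene or transcript, and with *Wnt4*hi replicate 3 at r = 0.29, whereas the other 5 columns correlated with their own arrays at 0.89 to 0.91. Values here come from the scanner output, and changes of calls or directions seen without this array are described with several of the gene lists. Values are log2 intensities after background correction and quantile normalization, and each difference is *Wnt4*hi minus *Wnt4*low. A probe's intensity also depends on its sequence, so that levels of different genes are not compared. The p values of limma were adjusted by Benjamini-Hochberg over all 45616 genes and transcripts, and the unadjusted threshold of 0.05 is that of the study. Nothing states that pools of different number come from separate litters or days, so p values measure the spread between these samples. With 3 arrays per fraction, the smallest two-sided p of an exact permutation test is 0.1.

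Of the 10 ligands, *Wnt4* alone stood higher in *Wnt4*hi cells on all 3 arrays, and *Wnt9a* alone stood higher in *Wnt4*low cells on all 3 arrays. The other ligands either overlapped between the fractions or were not detected. After adjustment, 0 of 10 passed limma's test, beside 0.441% of all genes and transcripts (0.0351% toward *Wnt4*hi and 0.406% toward *Wnt4*low cells). At the unadjusted threshold 2 of 10 passed, 1 in each direction, beside 10.6% of all genes and transcripts (5.06% toward *Wnt4*hi and 5.53% toward *Wnt4*low cells). The arrays of the fractions did not overlap for 2 of 10 ligands, beside 16.1% of all 45610 genes and transcripts measured on every array (9.63% toward *Wnt4*hi and 6.44% toward *Wnt4*low). Without *Wnt4*hi replicate 2, the counts were again 0 after adjustment and 2 at the unadjusted threshold. Of all 45616 genes and transcripts, 1 and 4721 then passed. The median difference was 0.05 over all 10 ligands, 3 of which had no measured level, and −0.06 over the other 7 with *Wnt9a* at its bound. That of all genes and transcripts was 0.07 either way.

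Detection separated the ligands into 3 sets. *Wnt4*, *Wnt5a*, *Wnt5b*, *Wnt2b*, *Wnt7b* and *Wnt11* were well above background on all 6 arrays. *Wnt9a* was well above background on 2 arrays, both *Wnt4*low, while *Wnt2*, *Wnt10a* and *Wnt3* were well above background on 0 arrays. Each *Wnt4*hi array thus detected 6 of the 10 ligands, and the *Wnt4*low arrays detected 7, 7 and 6. A ligand that is not well above background has no measured level here, which does not show that its transcript is absent.

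**Figure D1:**
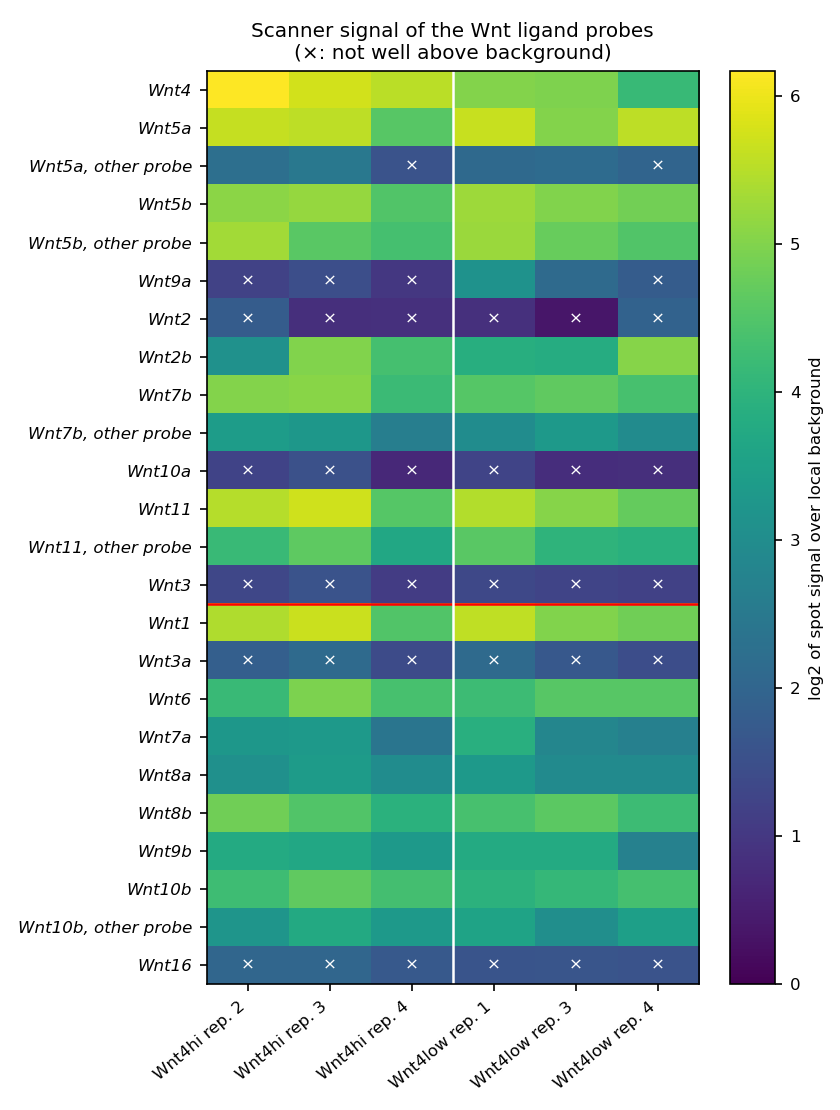
Scanner signal over local background (log2) for each probe of the 10 ligands (above the red line) and of the other 9 Wnt ligands of the array (below it), in the 3 *Wnt4*hi and 3 *Wnt4*low arrays before normalization. Crosses mark spots that are not well above background, which fill the rows of *Wnt2*, *Wnt10a*, *Wnt3*, *Wnt3a* and *Wnt16*, 4 of 6 places of *Wnt9a* and 2 of 6 places of the second *Wnt5a* probe.

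*Wnt4*, the ligand whose locus drives the reporter, was measured by 1 probe. Its log2 intensity was 11.20, 10.53 and 10.77 in *Wnt4*hi replicates 2, 3 and 4 and 9.85, 10.10 and 9.31 in *Wnt4*low replicates 1, 3 and 4. The fractions did not overlap, and the gap between the lowest *Wnt4*hi and the highest *Wnt4*low array was 0.42, smaller than the range within either fraction. The means were 10.83 ± 0.34 and 9.76 ± 0.40 (SD, n = 3 each), a difference of 1.08 (standard error 0.27, 95% interval 0.42 to 1.73), or 2.11-fold with an interval of 1.34 to 3.33. The adjusted p in limma was 0.210, so that *Wnt4* passed the unadjusted threshold and not the adjusted one. Since the sorted membrane GFP is switched on by Cre made from this locus, the difference is a check of the sort and not an independent result. The probe was well above background on every *Wnt4*low array, with scanner signals of 1037, 1066 and 534 against a local background of 30 to 34. Without *Wnt4*hi replicate 2, the array with the highest value, the difference was 0.89.

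The sequence before the *Wnt4* start is shown because the reporter and the sort both rest on this locus, and that of *Wnt9a* because it is the other ligand past the unadjusted threshold. Both are the RefSeq promoters of the build GRCm38.p6 on the plus strand, at chr4:137277385-137277634 for *Wnt4* (250 bases) and chr11:59306680-59306848 for *Wnt9a* (169 bases, a shorter stretch). Such sequences were held for 7 of the 10 ligands. Capitals mark GGGCGG, the GC box, or its reverse complement CCGCCC.

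Wnt4: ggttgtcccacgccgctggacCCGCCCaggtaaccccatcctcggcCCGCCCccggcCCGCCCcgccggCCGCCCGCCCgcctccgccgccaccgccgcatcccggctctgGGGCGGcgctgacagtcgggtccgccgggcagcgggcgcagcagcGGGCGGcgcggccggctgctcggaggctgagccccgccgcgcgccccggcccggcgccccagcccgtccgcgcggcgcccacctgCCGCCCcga

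Wnt9a: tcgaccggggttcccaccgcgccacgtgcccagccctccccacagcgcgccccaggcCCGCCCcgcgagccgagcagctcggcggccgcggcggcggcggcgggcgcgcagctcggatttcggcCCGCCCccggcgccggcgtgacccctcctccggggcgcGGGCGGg

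The *Wnt4* sequence is 85.2% G and C with 44 CG pairs, and the *Wnt9a* sequence is 84.62% G and C with 32 CG pairs. Searched on both strands and with overlaps counted, GGGCGG was found at 8 places before *Wnt4* and 3 before *Wnt9a*. It occurs in 32.74% of 32851 promoters searched over 250 bases. TATAAA, the core of the TATA box, was found in neither sequence and occurs in 12.37% of promoters. CTTTGAT, a core of TCF and LEF motifs, was also found in neither and occurs in 3.205%. CANNTG, the E-box, was found once in each and occurs in 66.22%. The arrays hold no measure of promoter use, and these matches are a description of the letters.

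*Wnt9a*, a ligand that commonly signals through β-catenin and takes part in joint and blood stem cell formation, was read by 1 dim probe. Its log2 intensity was 6.81, 6.77 and 6.68 in *Wnt4*hi replicates 2, 3 and 4 and 8.26, 7.49 and 7.20 in *Wnt4*low replicates 1, 3 and 4. The *Wnt4*hi arrays lay close together, at the level of spots not well above background, and the *Wnt4*low arrays were spread, with replicate 1 highest and replicate 4 also not above background. With each *Wnt4*hi array set to the dimmest signal that still counted as well above background there, *Wnt9a* was lower by 1.25-fold in *Wnt4*hi. This value serves as a bound but not a strict one, since spots brighter than that signal could still fail to count as well above background. The *Wnt4*low mean behind this bound takes in replicate 4, which itself was not above background. The bound rested on *Wnt4*low replicate 1, without which it was 1.01-fold. The measured means were 6.75 ± 0.07 and 7.65 ± 0.55 (SD, n = 3 each), a fitted difference of −0.90 (standard error 0.28, 95% interval −1.58 to −0.21, adjusted p = 0.319 in limma). Before normalization the fractions met, with scanner signals of 79.5, 111 and 63.5 in *Wnt4*hi and 318, 149 and 110.5 in *Wnt4*low arrays. The fitted difference was −0.92 without *Wnt4*hi replicate 2. It was −0.59 without *Wnt4*low replicate 1, which moved it by over 1.5 times, and −0.86 without *Wnt4*hi replicate 4, which ended the unadjusted call.

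**Figure D2:**
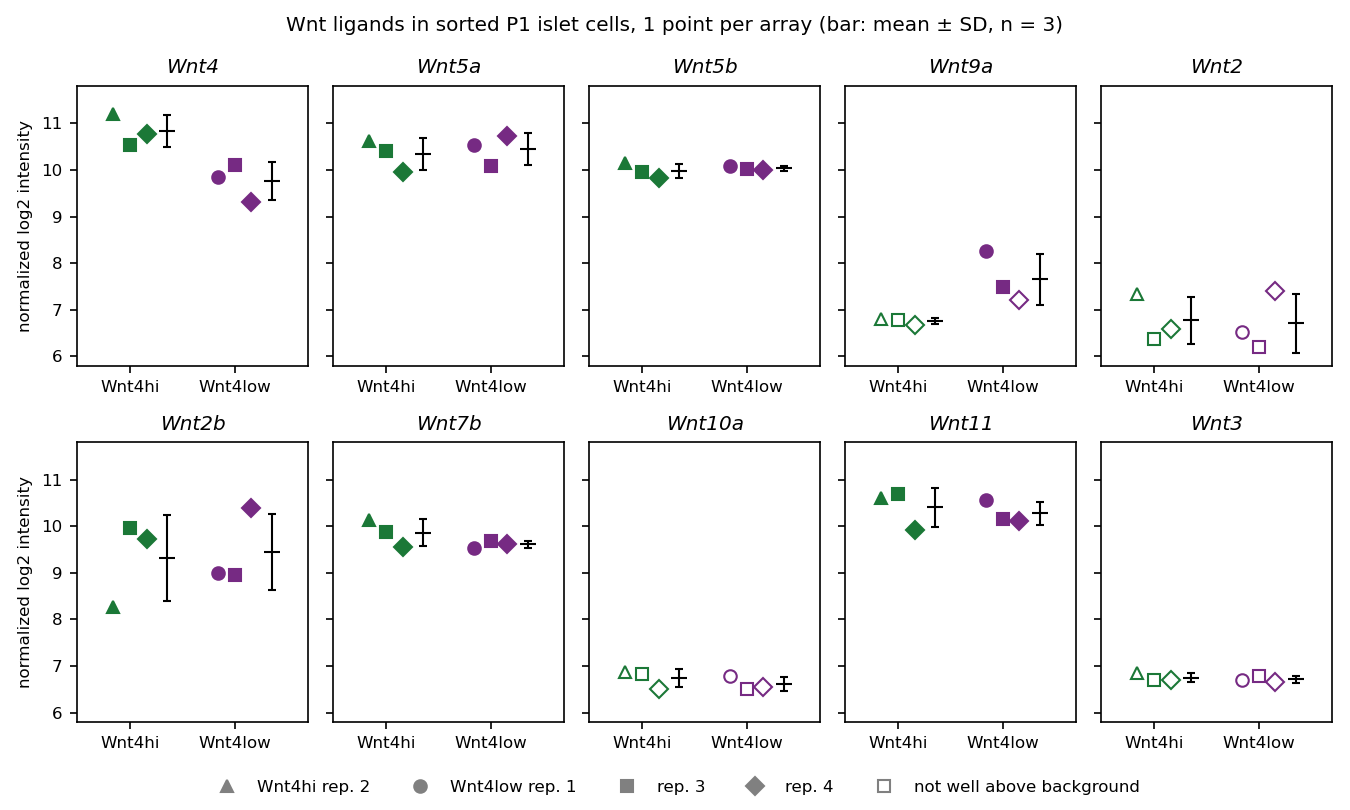
Normalized log2 intensity of the 10 ligands in each array, for the probe that stands for the gene, with the mean and SD of 3 arrays as bars and open symbols for spots not well above background. *Wnt4* is higher in all 3 *Wnt4*hi arrays, *Wnt9a* is higher in all 3 *Wnt4*low arrays, and the arrays of the other 8 ligands overlap.

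*Wnt5a*, *Wnt5b* and *Wnt11* are the ligands best known for signalling without β-catenin, in planar cell polarity and directed cell movement. All 3 were detected on every array, and none passed either threshold. *Wnt5a* had a log2 intensity of 10.63, 10.41 and 9.95 in *Wnt4*hi replicates 2, 3 and 4 and 10.54, 10.08 and 10.72 in *Wnt4*low replicates 1, 3 and 4. The lowest and the highest array thus belong to different fractions but share the number 4, and the other 4 arrays interleave. The difference was −0.12 (standard error 0.25, 95% interval −0.73 to 0.49, adjusted p = 0.923 in limma). A second *Wnt5a* probe, dimmer and above background on 2 of 3 arrays of each fraction, differed by −0.02.

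*Wnt5b*, the close paralog of *Wnt5a*, was the most even of the detected ligands. Its log2 intensity was 10.14, 9.95 and 9.83 in *Wnt4*hi replicates 2, 3 and 4 and 10.09, 10.01 and 9.996 in *Wnt4*low replicates 1, 3 and 4. All *Wnt4*low arrays lay inside the range of the *Wnt4*hi arrays. The difference was −0.06 (standard error 0.14, 95% interval −0.39 to 0.28, adjusted p = 0.933 in limma), an interval of 0.764 to 1.21 in fold. Its second probe, to another transcript of the gene, differed by −0.04.

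*Wnt11*, which acts in convergent extension and in kidney and heart development, had a log2 intensity of 10.60, 10.69 and 9.93 in *Wnt4*hi replicates 2, 3 and 4. It was 10.56, 10.15 and 10.11 in *Wnt4*low replicates 1, 3 and 4. *Wnt4*hi held both the highest and the lowest array. The difference was 0.13 (standard error 0.25, 95% interval −0.48 to 0.75, adjusted p = 0.913 in limma), and the second probe differed by 0.01.

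The remaining 5 ligands are commonly assigned to β-catenin signalling, and *Wnt2b* and *Wnt7b* were the only 2 of them detected. *Wnt2b*, a mesenchymal ligand of many endoderm-derived organs, varied most between arrays among the detected ligands. Its log2 intensity was 8.27, 9.96 and 9.73 in *Wnt4*hi replicates 2, 3 and 4 and 8.99, 8.96 and 10.39 in *Wnt4*low replicates 1, 3 and 4. The range was 2.12 over all 6 arrays, and the highest and lowest arrays lay in different fractions. The difference was −0.13 (standard error 0.58, 95% interval −1.54 to 1.29, adjusted p = 0.968 in limma). Its direction rested on single arrays, being 0.40 without *Wnt4*hi replicate 2 and 0.34 without *Wnt4*low replicate 4.

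*Wnt7b*, an epithelial ligand of lung, kidney and pancreas development, had a log2 intensity of 10.13, 9.88 and 9.56 in *Wnt4*hi replicates 2, 3 and 4. It was 9.53, 9.69 and 9.61 in *Wnt4*low replicates 1, 3 and 4. *Wnt4*hi replicates 2 and 3 lay above all *Wnt4*low arrays and *Wnt4*hi replicate 4 lay among them. The difference was 0.25 (standard error 0.18, 95% interval −0.19 to 0.69, adjusted p = 0.732 in limma), and the second probe differed by 0.06. It was 0.11 without *Wnt4*hi replicate 2 and 0.40 without *Wnt4*hi replicate 4, so that its size rested on single arrays. These 2 probes disagreed most among the ligands with 2 probes, by 0.19. The WNT7 cofactors *Adgra2* and *Reck* differed by 0.03 (−0.09 without *Wnt4*hi replicate 2) and −0.56, with adjusted p values in limma of 0.973 and 0.560.

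*Wnt2*, a mesenchymal and endothelial ligand, *Wnt10a*, an ectodermal ligand of skin and teeth, and *Wnt3*, a ligand of early patterning and stem cell niches, were at the background throughout. *Wnt2* read 7.35, 6.36 and 6.60 in *Wnt4*hi replicates 2, 3 and 4 and 6.51, 6.20 and 7.41 in *Wnt4*low replicates 1, 3 and 4. *Wnt10a* read 6.87, 6.84 and 6.51 and then 6.78, 6.52 and 6.55 in the same order, and *Wnt3* stayed between 6.65 and 6.86. No direction is given for these 3 genes.

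**Figure D3:**
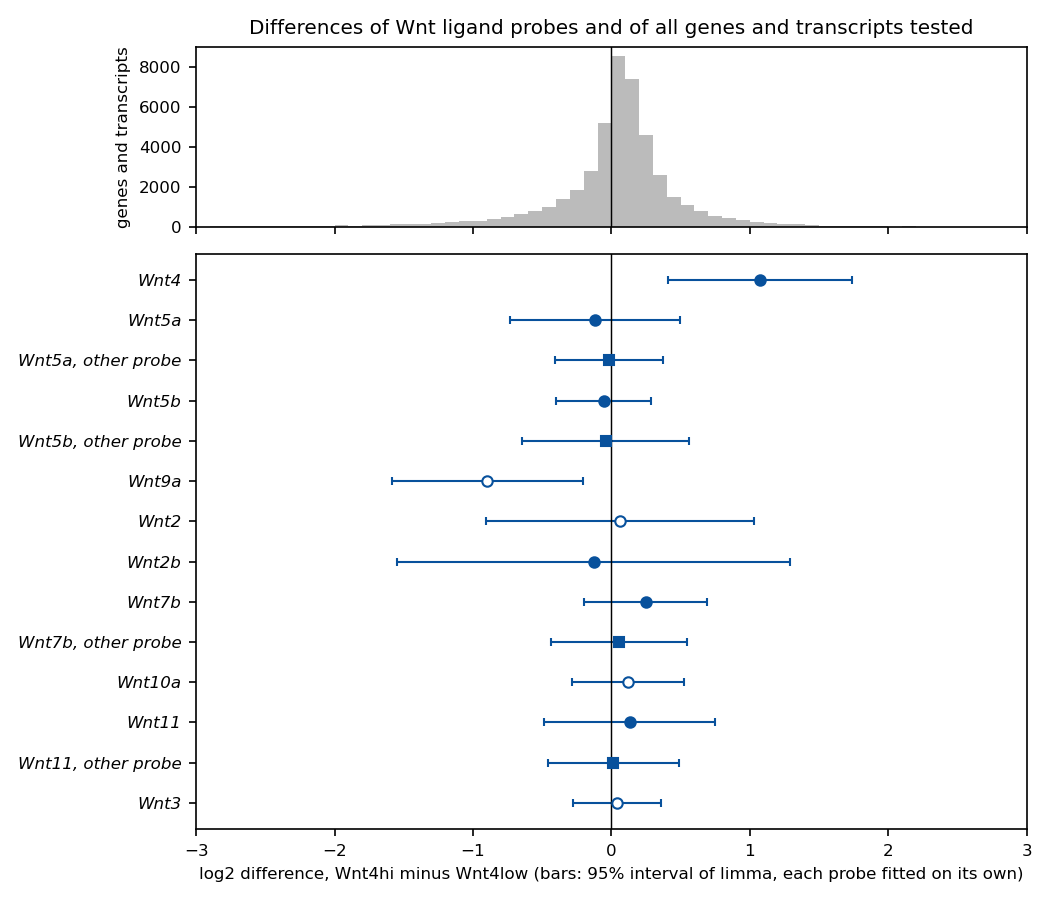
Log2 difference of each of the 14 probes of the 10 ligands (lower panel, bars are 95% intervals of limma, circles stand for the gene and squares are other probes, open symbols are not well above background in at least 1 fraction) under the differences of all genes and transcripts (upper panel, number per 0.1 bin). The intervals of *Wnt4* and *Wnt9a* lie on either side of 0, and those of the other 12 probes hold 0.

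In precision, the standard errors of the 6 ligands detected on every array ran from 0.14 to 0.58, and the median over all genes and transcripts was 0.21. The second probes of *Wnt5a*, *Wnt5b*, *Wnt7b* and *Wnt11* gave differences of the same sign as the first, all smaller in size, and none passed the unadjusted threshold. With each of the 14 probes fitted on its own, 2 passed the unadjusted threshold, beside 11% of all probes, and 0 passed after adjustment, beside 0.477%. The other 9 Wnt ligands of the array did not separate the fractions either. Of the 7 with a measured level, 6 were higher in *Wnt4*hi cells and *Wnt7a* alone was lower, beside 63.6% of all genes and transcripts that were higher. Without *Wnt4*hi replicate 2, 4 of these 7 were higher, beside 59.7% of all. Of all 9, 0 passed either threshold in limma, and 0 had arrays that did not overlap. *Wnt3a* and *Wnt16* among them were not well above background on any array, so their direction was not measured. *Wnt3a*, *Wnt6* and *Wnt9b* lie next to *Wnt9a*, *Wnt10a* and *Wnt3* in the mouse genome. *Wnt6* and *Wnt9b* differed by 0.18 and 0.17, or 0.30 and 0.11 without *Wnt4*hi replicate 2.

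The genes that release, carry and receive Wnt proteins were counted from lists written by role. The counts stand beside 63.6% of all genes and transcripts that were higher in *Wnt4*hi cells, and 5.06% and 5.53% past the unadjusted threshold toward *Wnt4*hi and *Wnt4*low cells. Of 8 secretion genes, 4 were higher in each fraction, and 1 passed the unadjusted threshold. That gene was *Tmed5*, a cargo receptor of the early secretory pathway, which differed by −1.29 (adjusted p = 0.247 in limma). *Vps35* of the retromer differed by 0.50, and *Wls*, the carrier that takes Wnt proteins to the cell surface, by 0.43. Without *Wnt4*hi replicate 2 these values were 0.38 and 0.28. Of 7 genes that handle Wnt proteins outside the cell, 6 had a measured level, 2 higher and 4 lower in *Wnt4*hi cells. Among these, 3 glypicans, which hold Wnt proteins at the cell surface, passed the unadjusted threshold, *Gpc4* at 1.29 and *Gpc6* and *Gpc3* at −1.59 and −0.95. Their adjusted p values in limma were 0.353, 0.333 and 0.449.

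Of 10 Frizzled genes, 2 were higher and 8 were lower in *Wnt4*hi cells, or 3 and 7 without *Wnt4*hi replicate 2, when *Fzd6* turned from −0.23 to 0.03. *Fzd4* differed by −2.49 and *Fzd1* by −1.52, both past the unadjusted threshold only (adjusted p = 0.148 and 0.171 in limma). Of 6 co-receptor genes, 3 were higher in each fraction, and *Ror1*, a receptor of WNT5A, passed the unadjusted threshold with a difference of −0.46 (adjusted p = 0.428 in limma). Its relative *Ror2* differed by 0.50 (adjusted p = 0.693).

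Of 10 secreted antagonists, 9 had a measured level, 4 higher and 5 lower in *Wnt4*hi cells, and 1, *Dkk3*, passed the unadjusted threshold with a difference of −1.50 (adjusted p = 0.0702 in limma). Of 10 genes commonly read as targets of β-catenin, 8 had a measured level, 5 higher and 3 lower in *Wnt4*hi cells. *Tcf7*, which encodes TCF1 and is also a T-cell gene, was the only gene of all these lists to pass after adjustment (adjusted p = 0.0229 in limma). It was above background on 3 *Wnt4*low and 0 *Wnt4*hi arrays. With the *Wnt4*hi arrays set to the same dim signal as for *Wnt9a*, it was lower by 2.16-fold in *Wnt4*hi cells. Without *Wnt4*hi replicate 3 that value was 1.91-fold. *Nkd2*, an inhibitor of the pathway, differed by 0.45 at the unadjusted threshold (adjusted p = 0.419). *Axin2*, the most general target, differed by 0.17 (adjusted p = 0.887), or −0.03 without *Wnt4*hi replicate 2, and was named after its value was seen.

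The counts of pathway genes depended on *Wnt4*hi replicate 2. Without it, *Gpc6* at −1.45 and *Ror1* at −0.38 no longer passed the unadjusted threshold. *Fzd2* at −1.10, the antagonists *Sfrp2* at −2.38 and *Sfrp1* at −0.78, and the target *Nkd1* at −0.66 passed it instead, where they had differed by −0.35, −1.40, −0.10 and −0.45 with all arrays. The pathway genes past this threshold thus numbered 12 in place of 10, and all genes and transcripts past it 4721 in place of 4828. *Tcf7* had an adjusted p of 0.0544 in limma. *Fzd6*, *Ryk*, *Lrp5*, *Dkk4*, *Notum*, *Adgra2* and *Axin2*, far from the threshold either way, changed sign. These genes are named for that change.

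**Figure D4:**
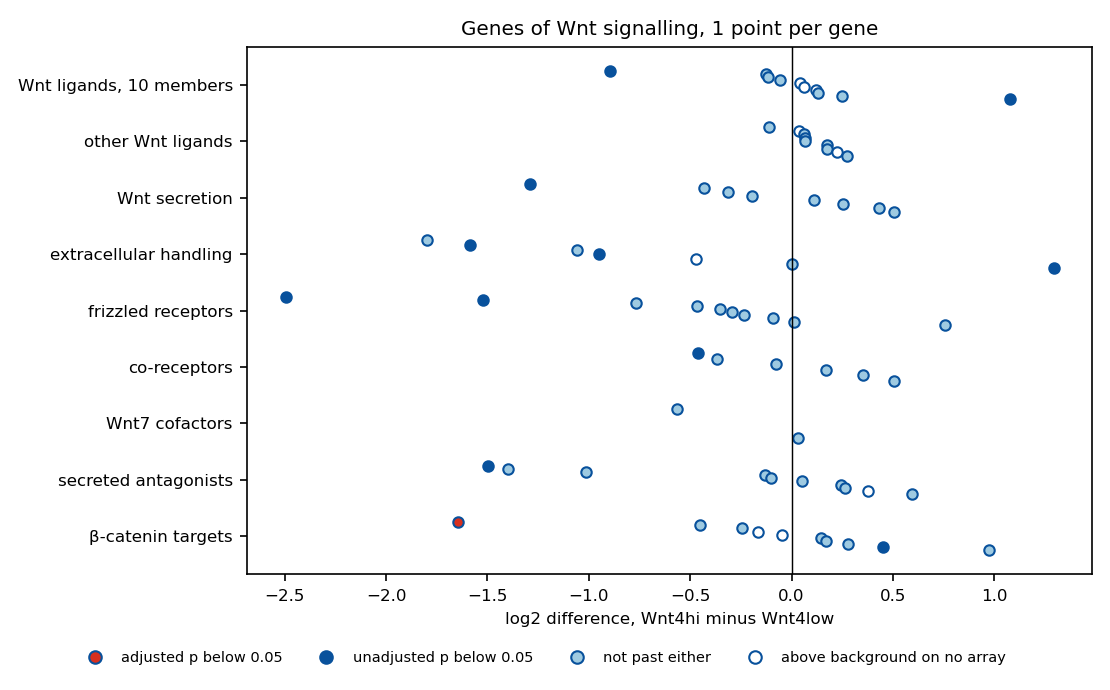
Log2 difference of each gene of the Wnt ligand and pathway lists, 1 point per gene, coloured by whether it passed the adjusted or unadjusted threshold of limma and open where no array was above background. The only adjusted call is *Tcf7* among the targets, and *Wnt4* and *Wnt9a* are the only ligands past the unadjusted threshold.

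Markers of other cell types also differed between the fractions. All 12 endothelial markers were lower in *Wnt4*hi cells, 8 after adjustment in limma, beside 0.406% of all genes and transcripts, with a median difference of −3.79. Their summed linear intensity was 4725 to 7421 on *Wnt4*hi and 40751 to 78858 on *Wnt4*low arrays. *Plvap*, *Pecam1* and *Egfl7* differed by −4.10, −3.04 and −2.15, the last without passing after adjustment. *Tie1* and *Tek* were well above background on 0 *Wnt4*hi arrays. All 11 mesenchymal and mural markers were lower in *Wnt4*hi cells, 0 after adjustment and 8 at the unadjusted threshold, beside 5.53% of all. Their sum was 36136 to 68713 on *Wnt4*hi and 85557 to 113426 on *Wnt4*low arrays. *Acta2*, *Col3a1* and *Col1a2* differed by −0.21, −1.18 and −1.06.

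Of 9 β-cell markers, 8 were higher in *Wnt4*hi cells, beside 63.6% of all genes and transcripts, 5 of them at the unadjusted threshold, beside 5.06%, and 0 after adjustment, with a sum of 320234 to 328904 against 189468 to 287318. All 4 α-cell markers were higher in *Wnt4*hi cells, 2 at the unadjusted threshold, with sums of 43025 to 73918 against 7542 to 42072. *Gcg* made up most of that sum and overlapped between the fractions, at 15.12 in *Wnt4*hi replicate 2 and 15.23 in *Wnt4*low replicate 3. Such sums weigh the brightest probes most, *Ins1* and *Ins2* among the β-cell markers. *Ghrl*, the hormone of ε-cells, rose by 2.10 (adjusted p = 0.0491 in limma), and *Ppy* differed by 1.22, whereas both δ-cell markers were lower in *Wnt4*hi cells at the unadjusted threshold. Of the other lists, 4 of 5 mesothelial, 4 of 6 leukocyte, 5 of 7 acinar, 3 of 6 ductal, 5 of 6 Schwann and 3 of 4 erythroid markers with a measured level were lower in *Wnt4*hi cells. Of all genes and transcripts, 63.6% were higher. These lists held 0 adjusted calls, beside 0.406% of all toward *Wnt4*low cells. At the unadjusted threshold, 1, 3, 1, 1, 2 and 2 of these lower markers passed, in the same order, beside 5.53% of all. In the other direction 1 acinar marker passed, beside 5.06%. With lists this short, a single call is not read as a result on that cell type.

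Without *Wnt4*hi replicate 2, 0 markers of any of these cell types passed after adjustment. All 12 endothelial markers stayed lower, and 11 of them passed the unadjusted threshold. Of all 45616 genes and transcripts, 59.7% were then higher in *Wnt4*hi cells and 1 passed after adjustment. At the unadjusted threshold, 2330 of them passed toward *Wnt4*hi and 2391 toward *Wnt4*low cells. Mesenchymal and mural markers past that threshold then numbered 9 and α-cell markers 3, with *Lum* and *Irx2* added. *Sst*, the hormone of δ-cells, no longer passed, at −0.42 against −0.56 with all arrays, which left 1 of the 2 δ-cell markers. The β-cell count stayed at 5, but *Ins2*, at 0.56 either way, was lost and *Ucn3*, at 1.62 against 0.90, was gained. Of the other lists, the lower markers became 5 of 5 mesothelial, 5 of 6 leukocyte and 4 of 7 acinar, as *Msln*, *Csf1r* and *Amy2a5* changed sign, the last from −1.11 to 0.15. Genes in these sentences are named for that change. The acinar marker *Pnlip* was at the background on every array. The part of these cells in the differences of *Wnt4*, *Wnt9a* and the pathway genes was not tested.

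**Figure D5:**
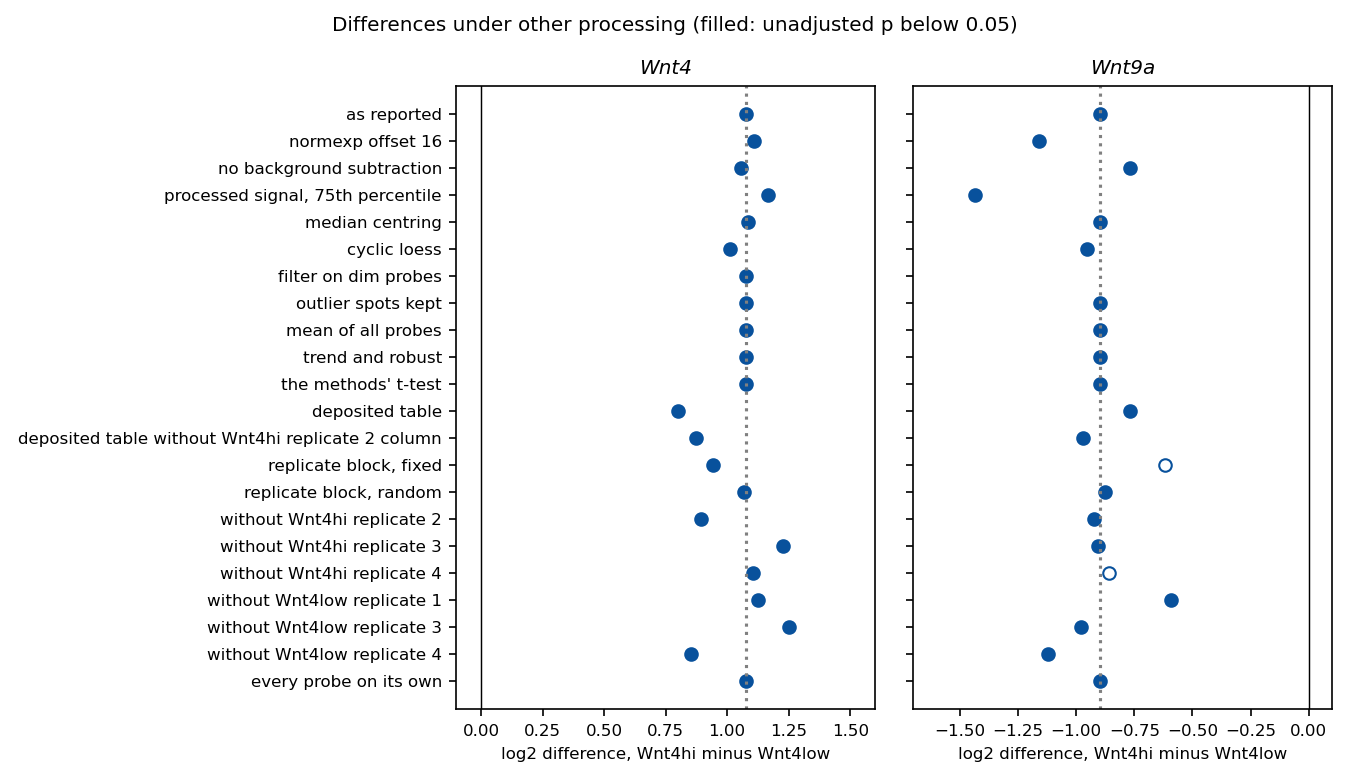
Log2 difference of *Wnt4* and *Wnt9a* as reported (top, dotted line) and under each other processing, filled where limma's or the alternative's unadjusted p was below 0.05. *Wnt4* runs from 0.80 to 1.25 and is filled throughout, and *Wnt9a* runs from −1.43 to −0.59 with 2 open points and no point under the filter on dim probes.

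Across the 21 other ways of processing the arrays, the *Wnt4* difference stayed above 0 and past the unadjusted threshold in all 21, between 0.80 and 1.25, as the plot of settings shows. Its adjusted p in these ran from 0.0961 to 0.480. *Wnt9a*, well above background on 2 *Wnt4*low and 0 *Wnt4*hi arrays, had a value in 20 of them. It was below 0 in each and past the unadjusted threshold in 18, between −1.43 and −0.59. Its adjusted p ran from 0.199 to 0.557. The adjusted calls among the pathway and marker genes were less stable. There were 10 of them, and 0 without *Wnt4*hi replicate 2, 3 or 4 or *Wnt4*low replicate 1 or 4, and 2 without *Wnt4*low replicate 3, so that *Tcf7* and *Ghrl* did not pass when any of the first 5 arrays was left out.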

How the data were processed

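Gene expression was measured on 6 single-color SurePrint G3 Mouse v2 arrays, grouped by the sample labels. For each array the authors deposited raw scanner output, in which every spot has a red-channel intensity and a local background intensity that are not normalized. They also deposited a table of 36693 rows of processed log2 values, used only as an alternative. The scanner software is Feature Extraction, version 9.1 in the submitters' processing notes and 12.0.1.1 in the file headers.

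Following the study's methods, median intensities were corrected with normexp (offset 50, all spots) and quantile-normalized without control spots in limma (version 3.58.1, R 4.3.3). Outlier spots (50 to 141 per array) and non-uniform spots (0 to 3) were left out, spots of a probe were averaged, and the brightest of a gene's probes stood for it. Probe names of the RefSeq type were matched to the GRCm38.p6 gene table (25126 of 27845). Fractions were compared over all 45616 genes and transcripts with lmFit and eBayes, two-sided, without covariates, and each probe was also fitted on its own. The calculation was tested on simulated data. Precision is limited by 3 arrays per fraction.

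Members and lists were chosen with earlier results of these data known. Named are all 10 ligands, the adjusted calls and at most the 3 largest absolute t values of each pathway list. Of each marker list, at most the 3 markers with the highest mean over the arrays are named. The 5 genes whose values most resemble those of *Wnt4* are named too. *Tie1*, *Tek*, *Pnlip*, *Wnt3a* and *Wnt16* were added after their values were seen, for being at the background. Other Wnt ligands, pathway genes and markers were added likewise, for their direction, a change without *Wnt4*hi replicate 2 or their place in the genome. Alternatives changed the background correction, normalization, dim-probe filter, outlier spots, probe choice, variance model, values, replicate block and arrays.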

Additional observations from a re-analysis of the deposited data

How the results depend on the processing

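With 3 arrays per fraction and dim probes for 4 of the 10 ligands, small differences were not detectable. Under every alternative 0 of 10 ligands passed after adjustment in limma, and 1 or 2 passed the unadjusted threshold. The count fell from 2 to 1 with the filter on dim probes, which leaves *Wnt9a* out, with a fixed block for the replicate number (*Wnt9a* −0.62, past the threshold no longer) and without *Wnt4*hi replicate 4. Over all genes, adjusted calls numbered 201, and 508 with the dim filter, 406 with the authors' table, 316 with that table without its *Wnt4*hi replicate 2 column (an alternative chosen after seeing the data), 0 with the methods' t-test (named there for the study as a whole, while these arrays were compared with limma), 0 with the fixed block, and 0 to 9 with 1 array left out, while 4063 to 6227 genes or probes passed the unadjusted threshold under these alternatives. Adjusted calls among pathway and marker genes numbered 10, and 17 with the dim filter, 0 with the methods' t-test, 0 with the fixed block, and 0 to 2 with 1 array left out. Pathway genes past the unadjusted threshold numbered 10, and 6 with the methods' t-test and 16 with the fixed block. The cause was not tested.

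Ligands far from either threshold changed sign. *Wnt2* and *Wnt3* were at the background on every array, so their signs carry no direction and their values are given only to show the spread. *Wnt2* was −0.28 in the authors' table, −0.25 in that table without the column, −0.32 with the fixed block and −0.23 to 0.41 with 1 array left out. *Wnt3* was −0.0021, −0.018 and −0.015 in the same order and −0.010 to 0.078 with 1 array left out. *Wnt2b* was 0.39 in the table without the column, 0.17 with the fixed block and −0.45 to 0.40 with 1 array left out. *Wnt7b* kept its sign at 0.05 in the authors' table and 0.07 with the fixed block. Leaving out 1 array gave −0.30 to 0.072 for *Wnt5a*, −0.14 to 0.015 for *Wnt5b* and −0.010 to 0.37 for *Wnt11*. *Wnt5a* has no value from the authors' table.

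Replicate numbers 3 and 4 occur in both fractions, and nothing says that they mark a shared pool. Both samples of number 4 came from 3 pups and both of number 3 from 4 pups. *Wnt4*hi replicate 2 and *Wnt4*low replicate 1 also came from 4 pups each. Deviations of same-numbered arrays correlated at −0.03 and 0.16, and those of arrays of different number at −0.23 to 0.18. The random block, with a correlation of 0.10, changed no call of a ligand. A call lost under the block is not read as a weaker effect.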

Other observations

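Among 16157 genes that carry a symbol and were well above background on all 6 arrays, the 5 whose values most resembled those of *Wnt4* were *Pcsk1n*, *Prxl2b*, *Coasy*, *Arhgap40* and *Ambp*. Their Pearson r with *Wnt4* was 0.997, 0.996, 0.993, 0.992 and 0.989 over 6 arrays, which share a slide and the sort. *Pcsk1n*, which encodes the granin-like protein proSAAS, had a log2 intensity of 14.92, 14.26 and 14.35 in *Wnt4*hi replicates 2, 3 and 4 and 13.47, 13.67 and 12.85 in *Wnt4*low replicates 1, 3 and 4. It differed by 1.18 (standard error 0.28, adjusted p = 0.193 in limma). These genes were chosen for their likeness to *Wnt4* on the same arrays, so a difference between the fractions follows from the choice. *Prxl2b*, an enzyme of prostaglandin synthesis, differed by 1.54 (adjusted p = 0.161) and *Ambp*, which encodes a secreted precursor of a protease inhibitor, by 1.28 (adjusted p = 0.171). *Coasy*, of coenzyme A synthesis, and *Arhgap40* differed by 0.51 and 0.18.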
